A study of Mus musculus with 8 samples.

Results

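The genes described here are 9 genes of receptor-mediated protein uptake and endosomal ion transport, taken by name from the 30587 genes of the deposited kidney table: the receptors Lrp2, Cubn and Amn, the adaptor Dab2, the chloride/proton exchangers Clcn3, Clcn4 and Clcn5, and the inositol 5-phosphatases Ocrl and Inpp5b. All 9 passed the filter on low counts. The list was chosen by gene name with the counts of Tsc1-KO against WT libraries already known, to set Clcn5 against Lrp2 and Cubn. Their values in that comparison are therefore a description, and the calls that the fit over all genes gave for them are listed once, beside the share of all genes called, and support nothing. RNA was taken from whole kidneys labelled as 28 days old. The 4 WT libraries are labelled C57BL/6, and the 4 Tsc1-KO libraries carry floxed Tsc1 alleles with an Aqp2-driven Cre (Tsc1f/f/Aqp2 Cre) on the same C57BL/6 background, which deletes Tsc1 in principal cells of the collecting duct. WT animals are not labelled as carrying the floxed alleles or the Cre, so the genotype and the Cre cannot be told apart. The labels do not say whether each library is a separate animal, so the p-values below measure only the spread between these libraries.

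Megalin, the product of Lrp2, is a giant receptor of the proximal tubule brush border that takes up filtered proteins from the urine. Cubilin (Cubn) has no membrane-spanning segment of its own and is carried to the surface by amnionless (Amn), while DAB2 links the receptors to clathrin. ClC-5, encoded by Clcn5, exchanges chloride for protons in early endosomes of the proximal tubule and is also found in acid-secreting A-type intercalated cells of the collecting duct. ClC-3 and ClC-4 are its closest relatives, and OCRL and INPP5B remove the 5-phosphate of phosphatidylinositol bisphosphate on endosomes. In people, loss of CLCN5 causes Dent disease, loss of OCRL causes Lowe syndrome, loss of LRP2 causes Donnai-Barrow syndrome, and loss of CUBN or AMN causes Imerslund-Gräsbeck syndrome.

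Library totals lay between 26453073 (WT 2) and 31226739 (Tsc1-KO 7) counts, and the least abundant of the 9 genes, Ocrl, still had 609 counts in its lowest library, WT 1. Tsc1 itself lay between 42.8 and 55.3 CPM (counts scaled to 1000000 per library) in WT and between 34.0 and 65.9 CPM in Tsc1-KO libraries, and its log2 difference was −0.05 (SE 0.18, edgeR adjusted p = 0.933). A count over the whole gene in whole kidney does not check a deletion limited to principal cells. Reads of Y-linked genes were present in WT 3, WT 4, Tsc1-KO 7 and Tsc1-KO 8 (3945 to 6001 reads) and nearly absent from the other 4 libraries (0 to 8 reads). Both genotypes therefore held 2 libraries of each kind. In whole-kidney RNA, fewer cells of a type and less RNA per cell cannot be told apart.

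Positions are those of the deposited table, which match GRCm38. Clcn5 (ENSMUSG00000004317) lies on the minus strand at chrX:7153810-7319358. Lrp2 (ENSMUSG00000027070, chr2:69424340-69586065) and Cubn (ENSMUSG00000026726, chr2:13276338-13491813) both lie on the minus strand, and Amn (ENSMUSG00000021278, chr12:111271095-111276426) lies on the plus strand. Ocrl is the other X-linked gene of the 9, at chrX:47912387-47965868. Clcn4, X-linked in people, is autosomal in this mouse annotation, at chr7:7282309-7300851. The gene models differ widely in size: Cubn has 67 exons over 215.5 kb, Lrp2 up to 79 exons over 161.7 kb, Clcn5 up to 15 exons over 165.5 kb and Amn 12 exons over 5.3 kb.

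The sequences before the transcription starts of Clcn5, Lrp2, Cubn and Amn are shown because Clcn5 was higher and the receptor genes were lower in Tsc1-KO kidneys. Each is the 250 bases upstream of a RefSeq start in GRCm38.p6, in the direction of transcription, with capitals for a match to the E-box CACGTG. RefSeq gives Clcn5 a distal start, at the gene boundary of the table, and an internal start 130.6 kb from it, and the gene count does not show which start was used.
Clcn5 distal start, chrX:7319359-7319608, minus: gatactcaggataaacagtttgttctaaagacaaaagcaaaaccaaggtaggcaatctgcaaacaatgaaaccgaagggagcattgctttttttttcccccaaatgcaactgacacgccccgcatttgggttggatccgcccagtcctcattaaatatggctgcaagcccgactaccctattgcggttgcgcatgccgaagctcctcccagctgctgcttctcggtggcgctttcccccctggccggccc
Clcn5 internal start, chrX:7188715-7188964, minus: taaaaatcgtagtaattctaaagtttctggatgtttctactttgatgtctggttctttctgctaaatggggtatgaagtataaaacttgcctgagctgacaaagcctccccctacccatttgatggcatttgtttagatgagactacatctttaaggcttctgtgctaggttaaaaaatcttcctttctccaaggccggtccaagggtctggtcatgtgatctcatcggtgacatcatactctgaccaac
Lrp2, chr2:69586030-69586279, minus: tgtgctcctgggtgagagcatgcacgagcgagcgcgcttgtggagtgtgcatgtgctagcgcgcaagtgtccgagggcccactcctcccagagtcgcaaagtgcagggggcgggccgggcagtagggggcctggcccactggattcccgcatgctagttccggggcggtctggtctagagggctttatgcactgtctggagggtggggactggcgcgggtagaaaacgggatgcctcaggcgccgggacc
Cubn, chr2:13491877-13492126, minus: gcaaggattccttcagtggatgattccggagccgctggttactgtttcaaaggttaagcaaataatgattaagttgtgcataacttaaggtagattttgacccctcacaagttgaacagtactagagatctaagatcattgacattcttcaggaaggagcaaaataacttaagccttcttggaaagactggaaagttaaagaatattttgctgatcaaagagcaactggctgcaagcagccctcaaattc
Amn, chr12:111270846-111271095, plus: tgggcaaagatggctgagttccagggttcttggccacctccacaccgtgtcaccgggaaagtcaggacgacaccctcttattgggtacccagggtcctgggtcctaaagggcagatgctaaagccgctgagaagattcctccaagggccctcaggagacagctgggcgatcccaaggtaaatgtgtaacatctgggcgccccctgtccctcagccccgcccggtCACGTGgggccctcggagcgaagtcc

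Base composition set these starts apart from each other. The Lrp2 window was 66.4% G+C with 18 CpG dinucleotides and the Amn window 61.2% with 11, while the Cubn window was 39.6% with 2. For Clcn5 the distal window was 52.4% G+C with 11 CpG and the internal window 41.2% with 3. Over 32851 RefSeq promoter windows of the same length the medians were 52.4% G+C and 6 CpG. Of the 13 windows of the 9 genes, 2 held CACGTG, beginning 26 bases before the start of Amn and 153 bases before a start of Clcn4, and 6.02% of all windows held it. The forkhead motif GTAAACA, read on both strands, was in 0 of the 13 windows and in 3.17% of all windows. The palindromic motif of hepatocyte nuclear factor 1 was in 0 of the 13 and in 0.009% of all windows. Both strands were searched, and no window of the 9 genes held more than 1 match. A match to these letters is a description of the sequence and not a measured binding site.

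Expression per gene length, in FPKM (fragments scaled by gene length and library size), ordered the 9 genes in WT kidneys. Amn stood highest at 167 ± 29.3 FPKM (SD, n = 4), followed by Lrp2 at 143 ± 18.8, and the libraries of these 2 genes overlapped. Dab2 followed at 72.0 ± 6.98 FPKM and Cubn at 41.4 ± 8.19 FPKM, each apart from its neighbours in every WT library. The mean FPKM of Inpp5b was 17.1 ± 3.85, that of Clcn5 11.5 ± 1.88, that of Clcn4 10.3 ± 1.23 and that of Clcn3 8.22 ± 1.67. The highest Clcn5 library in WT, 13.4 FPKM, was just under the lowest Inpp5b library, 13.6 FPKM, while Clcn5 overlapped with Clcn4 and Clcn4 with Clcn3. Ocrl was lowest, at 2.94 ± 0.48 FPKM.

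In Tsc1-KO kidneys Clcn5 moved up in this order. Its mean of 22.5 ± 2.12 FPKM (SD, n = 4) lay between Cubn (29.0 ± 6.36) and Inpp5b (14.9 ± 4.03), and it overlapped with both in single libraries. Lrp2 (105 ± 28.8 FPKM) and Amn (97.9 ± 20.04 FPKM) overlapped with each other.

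**Figure D1:**
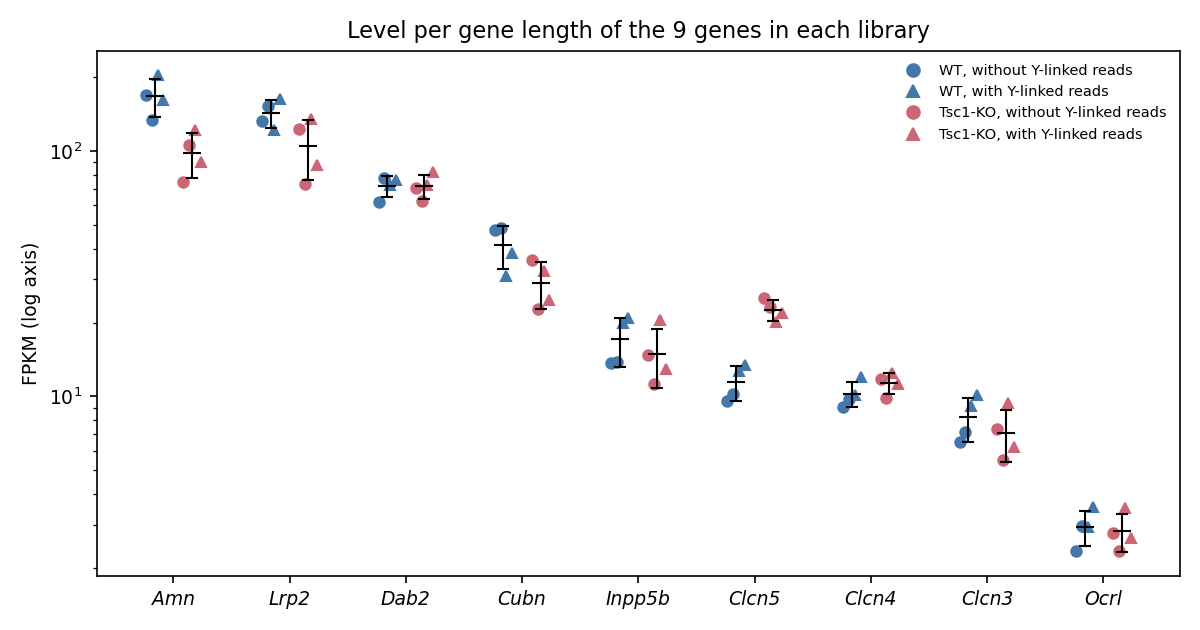
FPKM of the 9 genes in each of the 8 libraries, on a log axis, ordered by the WT mean (blue WT, red Tsc1-KO, triangles for libraries with Y-linked reads, black bars for mean and SD of 4). Clcn5 is the only gene of the 9 whose Tsc1-KO libraries (20.1 to 25.1 FPKM) all lie above its WT libraries (9.55 to 13.4 FPKM), and Amn is the only gene whose Tsc1-KO libraries all lie below.

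Clcn5 transcripts were higher in every Tsc1-KO kidney library than in any WT library. CPM of Clcn5 were 108.5, 117.4, 146.1 and 153.6 in WT 1 to 4 and 293.7, 264.6, 233.6 and 252.3 in Tsc1-KO 5 to 8. The gap between the groups ran from 153.6 to 233.6 CPM. The means were 131 ± 21.8 and 261 ± 25.2 CPM (SD, n = 4 each), a 1.99-fold difference and a log2 change of 0.99 (SE 0.13).

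The related exchangers did not show this separation. Clcn4, an endosomal exchanger that needs ClC-3 as a partner for its stability, had 77.3 to 103 CPM in WT and 84.4 to 109 CPM in Tsc1-KO libraries, with a log2 change of 0.16 (SE 0.12). Clcn3, an exchanger of endosomes and synaptic vesicles, had 110.7, 122.1, 155.8 and 172.7 CPM in WT 1 to 4 and 128.3, 94.6, 163.0 and 107.1 CPM in Tsc1-KO 5 to 8. Its groups overlapped over most of their range, and its log2 change was −0.19 (SE 0.19). It was −0.35 without Tsc1-KO 7 and −0.08 without Tsc1-KO 6.

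All 3 receptor genes had lower means in Tsc1-KO kidneys, and only Amn of the 3 was separated between the groups. For Lrp2 the WT libraries had 2189, 2563, 2038 and 2724 CPM and the Tsc1-KO libraries 2100, 1229, 2283 and 1486 CPM. Tsc1-KO 6 and 8 lay below all WT libraries, whereas Tsc1-KO 5 and 7 lay inside the WT range. The means were 2378 ± 319 and 1775 ± 499 CPM, and the log2 change was −0.42 (SE 0.19).

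For Cubn the WT libraries had 703.5, 724.3, 464.1 and 575.8 CPM and the Tsc1-KO libraries 551.0, 339.4, 492.5 and 372.4 CPM. As for Lrp2, Tsc1-KO 6 and 8 were the lowest and Tsc1-KO 5 and 7 lay within the WT range. The log2 change was −0.49 (SE 0.19), between means of 617 ± 121 and 439 ± 99.6 CPM.

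For Amn the WT libraries had 309.4, 246.9, 377.9 and 298.0 CPM and the Tsc1-KO libraries 140.5, 195.2, 227.0 and 168.2 CPM. The lowest Amn library was Tsc1-KO 5, in which Lrp2 and Cubn were within the WT range. Its means were 308 ± 53.9 and 183 ± 37.0 CPM, with a log2 change of −0.75 (SE 0.17).

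The adaptor and the phosphatases differed little between the groups. Dab2 had 451.6 to 570.5 CPM in WT and 459.9 to 606.9 CPM in Tsc1-KO libraries, and its log2 change of 0.02 (SE 0.12) took either sign under other scalings. Ocrl had 22.1 to 33.5 CPM in WT and 22.3 to 33.8 CPM in Tsc1-KO libraries, with a log2 change of −0.04 (SE 0.16) whose sign turned when WT 4 or Tsc1-KO 6 was left out (0.04 in both cases). Inpp5b had 63.0, 64.8, 93.2 and 97.0 CPM in WT 1 to 4 and 70.0, 52.6, 97.2 and 61.1 CPM in Tsc1-KO 5 to 8, with a log2 change of −0.18 (SE 0.21). It was −0.38 without Tsc1-KO 7 and −0.06 without Tsc1-KO 6.

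Of the 9 genes, 1 was past an edgeR adjusted p of 0.05 in the higher direction (Clcn5) and 1 in the lower direction (Amn). Among all 18048 genes tested, 4.67% were past it, 3.5% as higher and 1.16% as lower. Libraries of the 2 groups did not overlap for the same 2 genes, beside 11.5% of all tested genes without overlap, 7.09% as higher and 4.4% as lower. Nothing is read from these counts, since the genes were listed with this comparison known. When each library was left out in turn, the log2 change of Clcn5 ranged from 0.90 to 1.05 and that of Amn from −0.88 to −0.65. Clcn5 was past the threshold in 8 of these 8 fits and Amn in only 2, and nothing is read from these counts either.

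**Figure D2:**
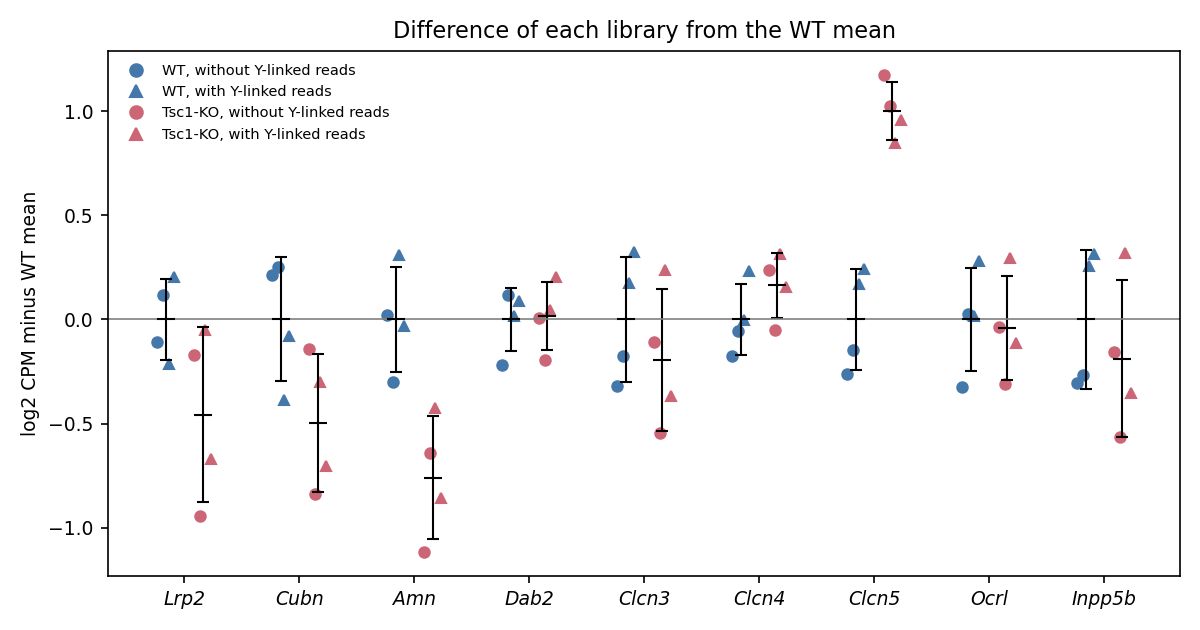
Log2 CPM of each library minus the WT mean of that gene, for the 9 genes in order of role (blue WT, red Tsc1-KO, triangles for libraries with Y-linked reads, black bars for mean and SD of 4). Clcn5 lies about 1 log2 unit above the WT mean in the Tsc1-KO libraries, the 3 receptor genes lie below it on average, and the other 5 genes overlap around 0.

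The ratio of Clcn5 to a receptor within a library does not depend on how libraries are scaled. Clcn5 counts were 4.96, 4.58, 7.17 and 5.64% of Lrp2 counts in WT 1 to 4 and 13.99, 21.54, 10.23 and 16.98% in Tsc1-KO 5 to 8. Every Tsc1-KO library thus stood above every WT library. The mean log2 ratio went from −4.18 ± 0.28 to −2.73 ± 0.45 (SD, n = 4 each), a difference of 1.46, or 2.75-fold.

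Against Cubn, Clcn5 counts were 15.42, 16.21, 31.47 and 26.67% in WT 1 to 4 and 53.31, 77.95, 47.43 and 67.75% in Tsc1-KO 5 to 8, again without overlap. The mean log2 ratio went from −2.22 ± 0.51 to −0.73 ± 0.33, a difference of 1.498, or 2.82-fold. These percentages compare counts and carry the unequal lengths of the genes. Per gene length, in FPKM, Clcn5 was 8.145% of Lrp2 in WT and 22.9% in Tsc1-KO kidneys on average, and 29.3% and 80.3% of Cubn. Against Amn the log2 count ratio of Clcn5 differed by 1.76 between the genotypes and against Dab2 by 0.99.

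**Figure D3:**
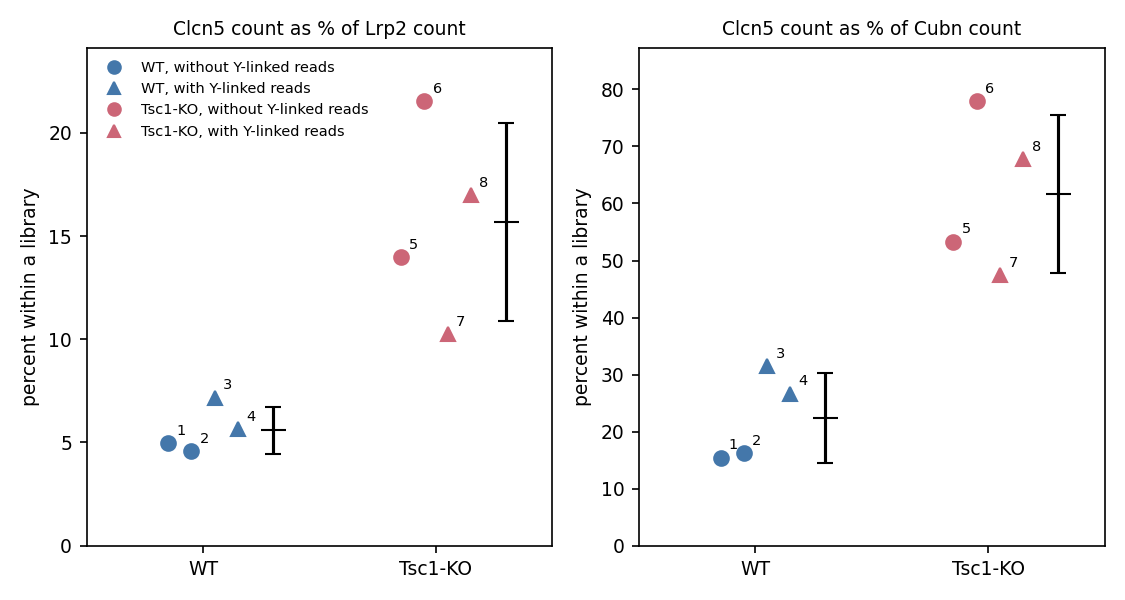
Clcn5 count as a percentage of the Lrp2 count (left) and of the Cubn count (right) in each library, numbered as labelled, with mean and SD of 4 as black bars (blue WT, red Tsc1-KO, triangles for libraries with Y-linked reads). The Tsc1-KO libraries range from 10.23 to 21.54% of Lrp2 and from 47.43 to 77.95% of Cubn, all above the WT libraries.

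Markers of the cells that hold these proteins differed between the groups as well. All 15 proximal tubule markers had a negative log2 change (median −0.50). Past the threshold 4 of them fell (Miox, Slc34a1, Fbp1 and Hnf4a) and none rose, beside 1.16% lower and 3.5% higher over all tested genes. The marker lists and the pathway lists below were chosen with earlier results of these data known. Counts and adjusted p-values from these lists are descriptions and not independent support. DESeq2 called 8 of the 15 lower, and 9 were lower at an unadjusted edgeR p under 0.05. DESeq2 also called more over all genes, 1003 higher and 500 lower, against 632 and 210 with edgeR. For genotype, the share of all genes under that unadjusted p was not counted. These larger counts therefore add no support, here or in the lists below. Their summed level was 20945 to 23628 CPM in WT and 14028 to 18512 CPM in Tsc1-KO libraries, without overlap. The sum is weighted by abundance, and values taken relative to it carry that weighting. Its largest parts in WT were Slc34a1 (mean 6637 CPM, log2 change −0.65), Pck1 (2701 CPM, −0.01), Slc27a2 (2526 CPM, −0.22) and Miox (2095 CPM, −0.61). Relative to that sum within each library, the log2 difference between Tsc1-KO and WT was −0.005 for Lrp2 and −0.04 for Cubn, against −0.31 for Amn. It was 0.47 for Dab2, 0.26 for Clcn3, 0.62 for Clcn4, 0.41 for Ocrl, 0.26 for Inpp5b and 1.45 for Clcn5. The SD of these log2 values over 4 libraries was 0.25 in WT and 0.28 in Tsc1-KO for Lrp2, 0.30 and 0.16 for Cubn, and 0.29 and 0.18 for Clcn5.

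A-type intercalated cell markers moved the other way. All 9 rose past the threshold (median log2 change 1.93), where 3.5% of all tested genes were called higher and 1.16% lower. Their sum went from 302 to 431 CPM in WT to 672 to 1343 CPM in Tsc1-KO libraries. The study's discussion, citing earlier work, counts ClC-5 among A-type markers with raised expression in kidneys of such mouse models. The study had already reported Foxi1, Kit, Slc4a1, Aqp6, Atp6v0d2, Atp6v1c2 and Atp6v1g3 as higher in Tsc1-KO kidneys. The list holds these genes, so its count is a description and not a test. Of 10 myeloid markers 3 rose (Ptprc, Lyz2 and Itgam, and 5 with DESeq2) with sums of 129 to 156 and 169 to 245 CPM. The largest part of that sum was Csf1r (WT mean 74.1 CPM), whose log2 change was −0.15, while 9 markers had positive values. Of 7 tubule injury markers 3 rose (Timp1, Cd44 and Lcn2) with overlapping sums of 675 to 1811 and 1340 to 4534 CPM. That sum was mostly Spp1 (WT mean 1183 CPM, log2 change 1.28), which did not pass. Havcr1 had a log2 change of −0.001 (SE 0.91) by genotype. With Y-linked reads Havcr1 was lower by −2.31 on the log2 scale (SE 0.33, edgeR adjusted p = 0.039). None of the 4 B-type intercalated cell markers passed the threshold with edgeR or DESeq2, and 1 was lower at an unadjusted p under 0.05. Of 7 tested principal cell markers 1 rose and 1 fell, and their sums overlapped (848 to 1293 and 950 to 1208 CPM). Among the Tsc1-KO libraries, Tsc1-KO 7 had both the lowest A-type sum and the lowest Clcn5 level, but Tsc1-KO 6 had the highest A-type sum and Tsc1-KO 5 the highest Clcn5 level. WT libraries ran the other way. WT 1 and 2 had the higher A-type sums (431 and 417 CPM) and the lower Clcn5 levels (108.5 and 117.4 CPM). WT 3 and 4 had the lower sums (302 and 354 CPM) and the higher Clcn5 levels (146.1 and 153.6 CPM). The part of these cell type shifts in the levels of Clcn5 and the receptors was not tested.

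**Figure D4:**
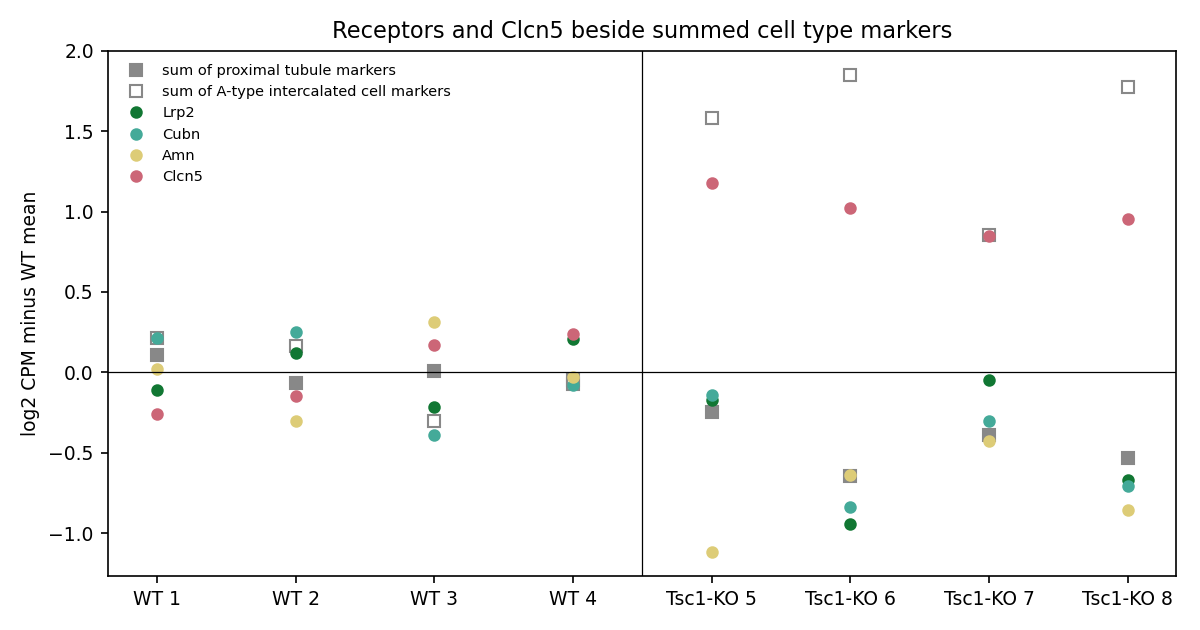
Log2 CPM minus the WT mean, by library, for Lrp2, Cubn, Amn and Clcn5 (coloured circles) and for the summed CPM of the 15 proximal tubule markers (filled squares) and the 9 A-type intercalated cell markers (open squares). In every Tsc1-KO library the 3 receptor genes and the proximal sum lie below 0, and Clcn5 and the A-type sum lie above it.

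Among other genes of apical endocytosis, 25 genes of clathrin coats, adaptors, RAB proteins and recycling were tested. None rose and 1 fell, beside 3.5% higher and 1.16% lower over all tested genes, and DESeq2 called 2 lower, Lrpap1 and Rab38. The gene that fell was Lrpap1, which encodes the chaperone that escorts megalin and its relatives through the endoplasmic reticulum. Lrpap1 had 611.4, 595.0, 598.5 and 556.6 CPM in WT 1 to 4 and 384.7, 383.4, 492.5 and 345.0 CPM in Tsc1-KO 5 to 8, without overlap. Its log2 change was −0.56 (SE 0.12, edgeR adjusted p = 0.0272). The next 3 genes by adjusted p had negative log2 changes and did not pass: Rab38, a trafficking GTPase (−0.57, adjusted p = 0.0897), Rab5c of early endosomes (−0.31, 0.144) and Ap2a2, a subunit of the AP-2 clathrin adaptor (−0.23, 0.246). The median log2 change of the 25 was −0.07, beside 0.005 over all tested genes. Of the 25, 19 had negative and 6 positive values, beside 8891 and 9157 over all tested genes. Libraries of the groups did not overlap for 4 as lower and 0 as higher, beside 4.4% and 7.09% of all tested genes. The summed level of the list, weighted by abundance, was 4239 to 4470 CPM in WT and 3716 to 4149 CPM in Tsc1-KO libraries.

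Among 9 other tested ClC genes and subunits, none rose and 1 fell, beside 3.5% higher and 1.16% lower over all tested genes. Clcn2, a chloride channel of the plasma membrane, had 38.2 to 45.6 CPM in WT and 24.3 to 33.6 CPM in Tsc1-KO libraries, with a log2 change of −0.53 (SE 0.12, edgeR adjusted p = 0.0297). For Ostm1, the partner of the lysosomal exchanger ClC-7, the value was 0.51 (adjusted p = 0.0922), and Bsnd, which encodes barttin, a subunit of kidney chloride channels, had 0.33 (0.153). The median over the 9 was −0.01.

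Of 12 tested phosphoinositide enzymes 3 rose and none fell, beside 3.5% higher and 1.16% lower over all tested genes. Inpp5j, an inositol 5-phosphatase, had 44.8 to 59.1 CPM in WT and 68.2 to 97.3 CPM in Tsc1-KO libraries (log2 change 0.73, SE 0.14, edgeR adjusted p = 0.0130). Synj2, the phosphatase synaptojanin 2, rose by 0.68 on the log2 scale (SE 0.15, adjusted p = 0.0259) between means of 4.76 and 7.65 CPM. Pip5k1b, a kinase that makes the phosphoinositide which OCRL degrades, rose by 0.71 (SE 0.15, adjusted p = 0.0256) from 7.14 to 11.6 CPM. The next gene, the kinase Pip5k1a, had 0.26 (adjusted p = 0.201), and the median over the 12 was 0.16.

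No gene of the 12 tested relatives of megalin passed the threshold with edgeR. At an unadjusted p under 0.05 there were 3 higher and 2 lower, and DESeq2 called 2 higher and 1 lower. Lrp8, an apolipoprotein E receptor, had a log2 difference of 1.15 (SE 0.32, edgeR adjusted p = 0.0728) and was higher in every Tsc1-KO library than in any WT library. Lrp4 had −0.54 (adjusted p = 0.107) and Lrp11 0.29 (0.264). The median over the 12 was 0.13.

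Of 13 tested genes for proteins that megalin or cubilin bind, 2 rose and 1 fell, beside 3.5% higher and 1.16% lower over all tested genes. B2m, the light chain of class I histocompatibility molecules and a filtered ligand of megalin, had 144.5 to 210.5 CPM in WT and 246.4 to 393.0 CPM in Tsc1-KO libraries (log2 change 0.79, SE 0.17, edgeR adjusted p = 0.0219). Lcn2, an iron-carrier-binding protein and also one of the injury markers, had 2.1 to 3.4 CPM in WT and 16.0, 32.5, 4.0 and 26.1 CPM in Tsc1-KO 5 to 8 (log2 change 2.87, SE 0.58, adjusted p = 0.0292). Tcn2, which carries vitamin B12 and is taken up by megalin, fell from 1980 ± 130 to 1394 ± 157 CPM (log2 change −0.51, SE 0.11, adjusted p = 0.0293). The median over the 13 was −0.01.

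Most of these 8 calls rested on the full set of libraries. When each library was left out in turn, Inpp5j passed in 6 of 8 fits, failing without WT 2 or WT 3, and B2m passed in 4, failing without WT 3, WT 4, Tsc1-KO 6 or Tsc1-KO 8. Clcn2 passed without WT 4, Tsc1-KO 5 or Tsc1-KO 7, Lrpap1 without WT 4 or Tsc1-KO 7, and Synj2, Pip5k1b, Tcn2 and Lcn2 only without Tsc1-KO 7. Adjusted p-values over these fits reached 0.0561 for Inpp5j, 0.0877 for B2m, 0.0941 for Clcn2, 0.0905 for Lrpap1, 0.0872 for Synj2, 0.0814 for Pip5k1b, 0.106 for Tcn2 and 0.117 for Lcn2. No direction turned in any of them. With no filter on low counts, Synj2 (adjusted p = 0.0650) and Lcn2 (0.101) did not pass.

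**Figure D5:**
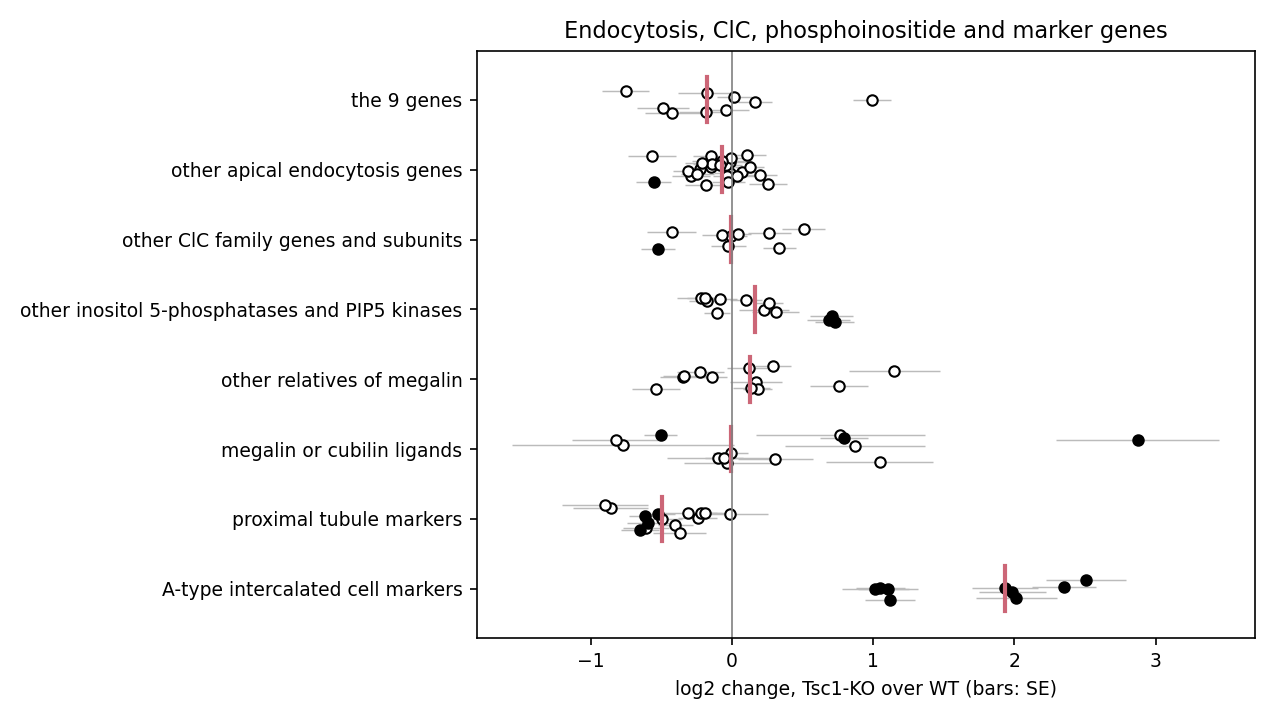
Log2 change, Tsc1-KO over WT, with SE for each gene of 8 groups, where filled points are past an edgeR adjusted p of 0.05, open points are not, and the red line is the group's median (the 9 genes are all drawn open because their calls are not read as results). The 9 A-type markers are all to the right of 0 and the 15 proximal markers all to the left. The medians of the endocytosis and ClC groups lie near 0, with 19 of the 25 endocytosis genes to the left.

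Libraries with Y-linked reads were also compared with those without, a difference on which the 9 genes were not chosen. With genotype in the model, none of the 9 genes passed an edgeR adjusted p of 0.05, beside 0.402% of 18679 tested genes (0.268% higher and 0.134% lower with Y-linked reads), and DESeq2 called none either. At an unadjusted p under 0.05 there were 2 of the 9, beside 10.8% of tested genes. These were Inpp5b, higher with Y-linked reads by 0.47 on the log2 scale (SE 0.15, edgeR adjusted p = 0.30) and Clcn3, higher by 0.39 (SE 0.15, edgeR adjusted p = 0.399). Without Tsc1-KO 8 both passed, at adjusted p = 0.0185 and 0.0463. The X-linked genes had differences of 0.28 (Ocrl, SE 0.14, edgeR adjusted p = 0.498) and 0.10 (Clcn5, SE 0.13, adjusted p = 0.828). The Clcn5 value averages opposite differences in the 2 genotypes, each between 2 and 2 libraries only. With Y-linked reads its mean was higher in WT (150 against 113 CPM) and lower in Tsc1-KO (243 against 279 CPM).

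The genotype difference of Clcn5 had the same direction in both kinds of library. Without Y-linked reads, WT 1 and 2 had 108.5 and 117.4 CPM and Tsc1-KO 5 and 6 had 293.7 and 264.6 CPM (log2 change 1.28). With Y-linked reads, WT 3 and 4 had 146.1 and 153.6 CPM and Tsc1-KO 7 and 8 had 233.6 and 252.3 CPM (log2 change 0.70). The difference between these effects was −0.60 (SE 0.21), which did not pass (edgeR adjusted p = 1). No gene of 19488 passed for this interaction, and 2.1% were under an unadjusted p of 0.05, Clcn5 among them. The next smallest unadjusted interaction p among the members was 0.24 (edgeR, Cubn). Amn differed by −0.75 without and −0.77 with Y-linked reads, Lrp2 by −0.54 and −0.34, and Cubn by −0.70 and −0.26.

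Some of the 9 genes varied together from library to library. The profiles of Clcn3 and Inpp5b, each centred on its own WT mean, were closest, with a root mean square difference of 0.055 log2 units over the 8 libraries. Lrp2 and Cubn differed by 0.20 and Amn and Clcn5 by 1.28, the farthest of the pairs. These are descriptions of 8 libraries that also differ in genotype. Among 12922 protein-coding genes, the profiles most like that of Clcn5 were those of Napepld (0.078), Lrrc3 (0.13), Cpeb2 (0.15), Rbm20 (0.15) and Ptprc (0.17), the leukocyte antigen CD45. Nearest to Lrp2 were Atrn (0.12), Syt7 (0.13), Hs3st3b1 (0.13), Dglucy (0.14) and Synpo2 (0.14). Nearest to Cubn were Sec31b (0.11), Perm1 (0.11), Calb1 (0.12), Slc22a4 (0.16) and Pygm (0.16).

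Sequence shared with other genes was counted for each of the 9 genes. No stretch of 50 bases in the transcripts of any of the 9 genes occurred in another of the 9. Clcn4 shared 9.85% of its 50-base stretches with the overlapping antisense gene Gm45631, Dab2 2.14% with the pseudogene Gm18888 and Cubn 1.85% with Gm13270, whereas Lrp2, Amn and Clcn5 shared none. The overlapping genes in the table each held at most 0.58% of the count of the gene they overlap. Reads dropped as ambiguous would not appear in either gene's count, and their number is not known. Whether strand was used in counting is not given in the sources used here.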

How the data were processed

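Poly(A)-selected RNA from 8 kidney samples (4 WT, 4 Tsc1-KO) was sequenced on an Illumina system. HISAT2 2.0.4 and HTSeq 0.9.1 are the tools credited in the submitters' notes on processing. For build and annotation the sources used here gave none. Of 30551 gene identifiers shared with the GRCm38 annotation, 29756 had the same chromosome, start and end. The deposited table holds raw read counts per gene made by the authors, on which all main values rest. It also holds FPKM values, which the authors scaled by gene length and library size and which are used here for levels between genes. The authors' own fold changes and p-values, and the sheets that repeat the table, were not used.

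Counts were fitted over all genes with edgeR 4.0.16 in R 4.3.3 (filterByExpr with a minimum count of 10, TMM scaling, robust quasi-likelihood test, genotype as the only term). This left 18048 of 30587 genes, and those not tested held 0.116% of counts. Calls used a Benjamini-Hochberg adjusted p of 0.05 over all tested genes. CPM (counts scaled to 1000000 per library) used the TMM-scaled totals. Libraries were split at 100 reads of 4 Y-linked genes, entered as a second term and as an interaction. The procedures were tested on simulated data. Alternatives used DESeq2 1.42.0, RLE scaling, no filter, limma 3.58.1 on log2(FPKM + 0.1) and log2(FPKM + 1), the Y-linked term, each kind of library alone, and each library left out in turn.

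The members and gene lists were chosen with earlier results of these data known. Named genes were all members, the 4 genes of each pathway list with the smallest adjusted p and any other called gene of it, and for Clcn5, Lrp2 and Cubn the 5 protein-coding genes (mean count of at least 50) with the smallest root mean square difference of profile. Promoter windows came from RefSeq (GRCm38.p6), where all 9 genes matched by symbol. Of 27 apical endocytosis genes listed, 2 were not used here. Some genes that this rule names are not reported here. Protein sequences were not used here. No 2 libraries agreed within counting noise.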

Additional observations from a re-analysis of the deposited data

Results flagged for a closer look

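Among 60 groups of 4 libraries examined for a library far from the others (30 measures in each genotype), 2 held such a library by Dixon's test, and chance alone flags about 1 in 20 groups. Ap2a2 stood at 187.8 CPM in Tsc1-KO 6, below the others of its group. Pip5k1b stood at 5.59 CPM in WT 3, below the other WT libraries, and without WT 3 its log2 change was 0.59 (edgeR adjusted p = 0.0814). None of the 9 members was among them.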

How the results depend on the processing

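Over the 8 alternatives other than leaving libraries out, the log2 change of Clcn5 ranged from 0.70 to 1.28 and that of Amn from −0.78 to −0.75. Calls of members in this comparison, on which they were chosen, are listed only for completeness: within libraries with Y-linked reads 0 members were called higher and 0 lower, and within those without 0 lower, each on 4 libraries only. Dab2 changed sign at values near 0: −0.0029 with DESeq2, −0.0021 with RLE, −0.0041 and −0.0040 on FPKM, −0.069 within libraries without Y-linked reads, and −0.059 to 0.082 when libraries were left out. Ocrl ranged from −0.17 to 0.043 and the Y-linked difference of Lrp2 from −0.063 to 0.24 when libraries were left out.

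Of the other pathway genes, 5 were called higher and 3 lower. DESeq2 called 6 lower, limma on log2(FPKM + 0.1) called 3 higher and on log2(FPKM + 1) 2 higher, and the Y-linked term gave 8 higher. Within libraries with Y-linked reads 0 were called in either direction, and within those without, 1 higher and 0 lower. Leaving out 1 library gave 0 to 7 higher and 0 to 5 lower, both maxima without Tsc1-KO 7, with 1 member called higher and 0 to 1 lower. The Y-linked term called 0 to 2 members, 2 only without Tsc1-KO 8. The log2 ratio of Clcn5 to Cubn differed by 0.97 within libraries with Y-linked reads and by 2.03 without, and that to Lrp2 by 1.05 and 1.86. Leaving out 1 library gave 1.29 to 1.65 for Lrp2 and 1.34 to 1.68 for Cubn. The causes were not tested. No paired analysis was possible because the groups share no replicate number. With 4 libraries a group, the SE of 0.12 to 0.21 limits what can be seen for the 9 genes.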
